A study of Mus musculus with 2 samples.

Results

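Core glycolysis was followed through 10 genes that carry glucose from uptake to lactate: Slc2a1, Hk2, Gpi1, Pfkl, Aldoa, Tpi1, Pgk1, Eno1, Pkm and Ldha. They were taken by symbol, in pathway order, from the 20330 genes of the deposited expression table, and all 10 were found. The samples were adipose tissue macrophages (ATM) sorted with F4/80 and CD11b antibodies from visceral adipose tissue of C57BL/6 mice that received a high-fat diet for 12 weeks from 4 weeks of age. The WT library came from hMRP8cre-;Hif-1αfl/fl;ApoE-/- mice and the KO library from hMRP8cre+;Hif-1αfl/fl;ApoE-/- mice, so both genotypes carried floxed Hif-1α alleles on an ApoE-/- background, and they differed in a Cre transgene driven by the human MRP8 promoter, which is active in myeloid cells. Each genotype had 1 poly(A) RNA library, and the number of animals behind each is not given in the sources used here. No difference below therefore has a replicate check or a p-value, and each is a description of 2 libraries.

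Glycolysis splits 1 glucose molecule into pyruvate with a small yield of ATP, and lactate dehydrogenase reduces pyruvate to lactate so that NAD+ is regenerated and the pathway can run without oxygen. HIF-1, a dimer of an oxygen-regulated α subunit with ARNT, binds a short DNA core in hypoxia response elements and is known to activate genes of nearly every step of the pathway, which is why glycolysis is a usual readout of HIF-1 activity. Macrophages use glycolysis strongly when they are activated by inflammatory stimuli. The study sequenced these libraries to ask how ATM without HIF-1α come to produce heat, and glycolysis is 1 of the pathways the table covers.

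The targeted gene was examined first. Hif1a was at 30.4 FPKM (fragments per kilobase of transcript, scaled to the mapped fragments of each library) in WT and at 20.97 FPKM in KO, a KO to WT ratio of 0.689. These are values for the whole gene, and reads over the floxed exon cannot be separated in them. Apoe, labelled -/- in both genotypes, was listed at 94.3 FPKM in WT and 117 in KO, also as a whole-gene value, in which transcript left by the disrupted allele cannot be told apart from intact transcript. The summed FPKM was 585823 in WT and 568329 in KO, and the smallest steps in the values gave estimates of 5869559 fragments for WT and 7466003 for KO. At that depth, 3 fragments on a transcript of 2 kb amount to 0.256 FPKM in WT ATM and 0.201 in KO ATM. Of 9 macrophage markers, 8 had a row and none of those was at 0, with a summed level of 6458 FPKM in WT ATM and 6797 in KO ATM, most of it from Lyz2 (3936 and 4080 FPKM). Of these 8, 5 were higher and 3 lower in KO; 1 was past 2-fold lower, Fcgr1 (49.3 and 21.9 FPKM), and 1 past 2-fold higher, Mertk (38.0 and 88.1 FPKM), where 22.5% of all genes compared were past 2-fold lower and 23.1% higher. Adgre1, which encodes F4/80, was at 299 and 239 FPKM, and Itgam, which encodes CD11b, at 128 FPKM in both libraries.

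Markers of some other cell types also differed between the libraries. All 6 neutrophil markers that passed the expression filter (1 FPKM or more in at least 1 library) were higher in KO, 4 of them past 2-fold. Of all genes compared, 51.3% were higher and 23.1% past 2-fold higher. Ngp (listed at 0 in WT, 2.61 FPKM in KO) and Retnlg (0.385 and 2.46 FPKM) passed only through KO. The summed level was 158 FPKM in WT ATM and 521 in KO ATM, of which S100a9 took 63.4 and 301 FPKM and S100a8 73.3 and 182 FPKM. Csf3r, at 15.5 and 24.1 FPKM, and Cxcr2, at 5.83 and 7.96 FPKM, were not past 2-fold. The granule genes, Ngp among them, were at 0 or low, with Camp, Ltf and Mmp8 listed at 0 in both. All 4 fibroblast markers were higher in KO, with 38.0 FPKM summed in WT and 76.5 FPKM in KO, most of it from Dcn (35.0 and 62.3 FPKM). Of these 4, 2 were past 3-fold higher, against 13.6% of all genes compared. They were Col1a2 (0.0948 and 4.75 FPKM) and Pdgfra (0.0246 and 4.98 FPKM), from about 3 and 1 fragments in WT, and both passed the filter only through KO. All 3 endothelial markers were higher by little, at 13.2 and 16.03 FPKM summed. Of 5 adipocyte markers, Adipoq and Plin1 were listed at 0 in both libraries, Cidec was at 5.83 FPKM in WT and listed at 0 in KO, Lep was listed at 0 in WT with 1.60 FPKM in KO, and Fabp4, which macrophages also express, was at 90.1 and 91.4 FPKM, for sums of 95.9 and 93.0 FPKM. Both T cell markers with a row were listed at 0 in both libraries. Summed over the markers with a row, the other lists were at 2.75 and 0.939 FPKM for B cells (1 of 3 markers passed), 11.1 and 9.66 FPKM for red blood cells (2 of 5 passed) and 28.1 and 33.3 FPKM for proliferation genes (4 of 4 passed), in WT and KO in this order. The part of these cells in the glycolysis values was not tested, and in such bulk samples fewer cells of a type cannot be told apart from less RNA per cell.

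The upstream sequences of the members were searched for the HIF core, ACGTG or GCGTG, on both strands of RefSeq promoter windows (assembly GRCm38.p6) that run from 250 bases before to 50 bases after an annotated start. All 10 members matched, with 16 windows in all. The 250 bases before the start are printed for 5 of them, 5′ to 3′ on the strand of the gene: Slc2a1 and Pfkl, which had the largest positive differences, Hk2, which had the largest negative difference, and Pgk1 and Ldha, which encode an ATP-forming enzyme and the lactate-forming enzyme. Capitals mark the matches, and a match on the opposite strand reads CACGT or CACGC.
Slc2a1, chr4:119108495-119108744, plus strand: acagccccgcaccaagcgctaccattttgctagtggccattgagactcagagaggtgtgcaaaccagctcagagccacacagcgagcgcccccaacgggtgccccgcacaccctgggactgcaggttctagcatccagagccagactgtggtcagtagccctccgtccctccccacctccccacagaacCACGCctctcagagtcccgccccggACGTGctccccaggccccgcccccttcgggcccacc
Hk2, chr6:82774455-82774704, minus strand: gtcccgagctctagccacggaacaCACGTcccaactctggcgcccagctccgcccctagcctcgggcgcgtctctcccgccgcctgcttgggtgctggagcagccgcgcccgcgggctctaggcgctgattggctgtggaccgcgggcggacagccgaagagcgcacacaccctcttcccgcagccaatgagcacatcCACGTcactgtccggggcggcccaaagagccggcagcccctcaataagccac
Pfkl, chr10:78009808-78010057, minus strand: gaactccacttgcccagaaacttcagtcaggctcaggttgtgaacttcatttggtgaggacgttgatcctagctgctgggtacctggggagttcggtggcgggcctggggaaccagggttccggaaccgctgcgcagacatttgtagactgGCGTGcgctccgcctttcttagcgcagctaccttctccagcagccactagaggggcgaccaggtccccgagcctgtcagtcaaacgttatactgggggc
Pgk1, chrX:106186850-106187099, plus strand: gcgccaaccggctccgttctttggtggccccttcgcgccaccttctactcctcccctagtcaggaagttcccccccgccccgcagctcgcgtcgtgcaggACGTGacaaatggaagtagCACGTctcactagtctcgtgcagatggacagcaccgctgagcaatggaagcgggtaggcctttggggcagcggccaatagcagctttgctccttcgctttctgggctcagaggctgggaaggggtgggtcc
Ldha, chr7:46845554-46845803, plus strand: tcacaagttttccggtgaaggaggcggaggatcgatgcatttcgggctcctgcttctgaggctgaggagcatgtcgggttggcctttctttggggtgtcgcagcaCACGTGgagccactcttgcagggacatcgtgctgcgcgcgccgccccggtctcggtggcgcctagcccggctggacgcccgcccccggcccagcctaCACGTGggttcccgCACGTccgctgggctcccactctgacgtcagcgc

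The Ldha promoter held the most matches of these windows. Before its start were 5 matches of ACGTG in 3 separate stretches, at 145, 48 and 34 bases upstream, and the first 2 stretches were the palindrome CACGTG, which matches on both strands and is also the E-box core bound by other factors such as MYC and USF. Another 2 matches, of GCGTG, lay within the 50 bases after this Ldha start. Ldha window 2, at another annotated start, is not printed. It held GCGTG on the opposite strand at 59 bases upstream of its start and on the strand of the gene from base 41 after it. Pgk1 had ACGTG at 150 bases upstream and on the opposite strand at 131. Hk2 had ACGTG at 226 and 52 bases upstream, both on the opposite strand. Slc2a1 had ACGTG at 36 bases and GCGTG on the opposite strand at 61 bases upstream, while Pfkl had 1 match of GCGTG, at 99 bases upstream.

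Among the members, 8 of 10 had either core in at least 1 window (12 of 16 windows), and Gpi1 and Tpi1 had neither. The same search found either core in at least 1 window of 46.7% of all genes with a window and of 68.4% of genes compared here, and by window in 43.8% of all 32851 windows and in 62.3% of the 10399 windows of genes compared. For ACGTG alone the shares were 43.8% of the members' windows (7 of 16), 19.6% of all windows and 26.0% of windows of genes compared. For GCGTG alone they were 43.8% (7 of 16), 32.4% and 50.4%, so that the members' share lay above that of genes compared for ACGTG and below it for GCGTG. Members with a match lay on both sides: Slc2a1, Pfkl, Aldoa and Pkm were higher in KO, and Hk2, Pgk1, Eno1 and Ldha were lower. ACGTG was held by Slc2a1, Aldoa and Pkm of the higher members and by Hk2, Pgk1 and Ldha of the lower ones. Gpi1 and Tpi1, which had no match, were both lower in KO. A match is a string of letters in this window and was not tested for binding.

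**Figure D1:**
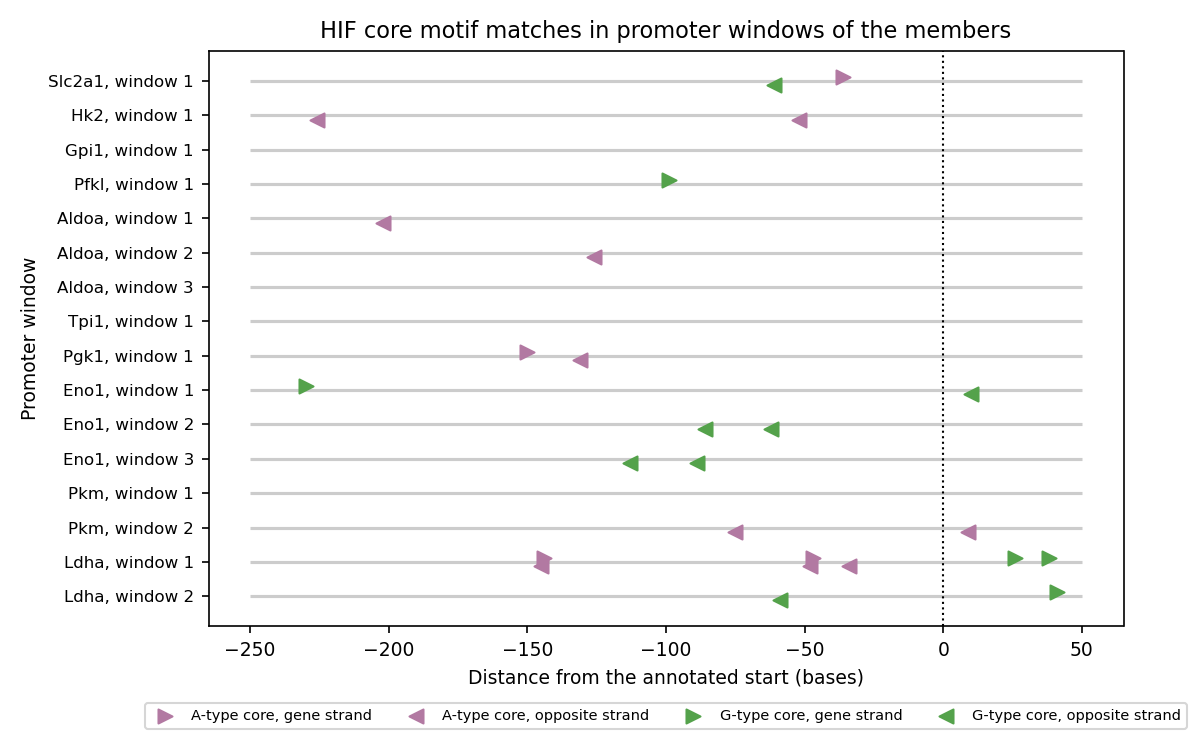
Positions of HIF core matches in the 16 RefSeq promoter windows of the 10 members, with distance from the annotated start in bases on the x axis and 1 line per window. Purple triangles are ACGTG (A-type) and green triangles GCGTG (G-type), pointing right on the strand of the gene and left on the opposite strand; Ldha window 1 holds 7 matches, the windows of Gpi1 and Tpi1 hold none, and overlapping windows of 1 gene can show the same site again.

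Expression of the 10 members was uneven across the pathway. FPKM is a level per transcript length, so it can be compared between genes of 1 library, and it spanned 55.3-fold in WT, from 3.55 FPKM for Pfkl to 197 FPKM for Pkm, and 43.6-fold in KO, from 5.41 FPKM for Hk2 to 236 FPKM for Aldoa. In WT, Slc2a1, Hk2 and Pfkl were each below the other 7 members; in KO, Hk2 and Pfkl were, and Slc2a1 was level with Eno1. The order in WT was Pkm, Aldoa, Gpi1, Tpi1, Ldha, Pgk1, Eno1, Hk2, Slc2a1 and Pfkl, and in KO it was Aldoa, Pkm, Gpi1, Ldha, Tpi1, Pgk1, Eno1, Slc2a1, Pfkl and Hk2. Neighbours in this order could not be compared against a spread between samples; Pkm and Aldoa in WT, Hk2 and Slc2a1 in WT, Ldha and Tpi1 in KO, and Eno1 and Slc2a1 in KO lay next to each other within 1 FPKM. Hk2 was level with Slc2a1 and above Pfkl in WT, and it was below both in KO.

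**Figure D2:**
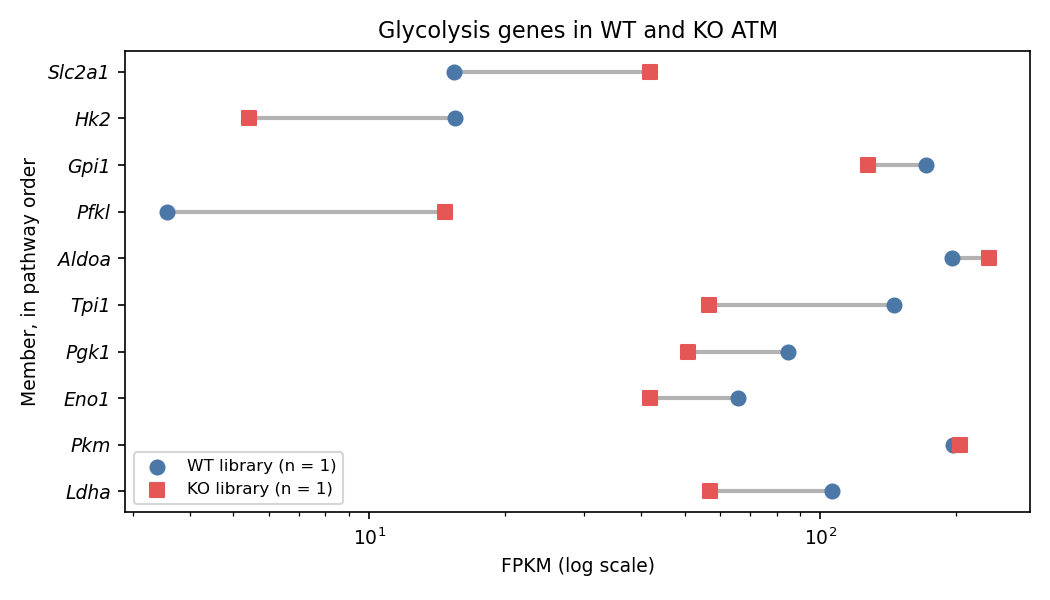
FPKM of each member in pathway order on a log axis, with a circle for the WT library and a square for the KO library (1 library each, so there are no error bars). Hk2, Gpi1, Tpi1, Pgk1, Eno1 and Ldha lie to the left in KO, Slc2a1, Pfkl and Aldoa to the right, and the points of Pkm nearly coincide at 197 and 204 FPKM.

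Differences are given on the log2(FPKM + 1) scale, KO minus WT, which understates the difference of low genes, and beside them the KO to WT ratio of FPKM with a 95% interval for counting error only. The intervals rest on fragment numbers estimated from the values themselves and say nothing about variation between animals. In KO 6 of the 10 members were lower and 4 were higher, with a median difference of -0.53 against 0.03 over the 10297 genes compared. Summed over the members, the level was 1001 FPKM in WT ATM and 837 in KO ATM, a ratio of 0.836. That was 0.171% of the summed FPKM of the WT library and 0.147% of that of the KO library. The 6 lower members together were at 589 FPKM in WT ATM and 340 in KO ATM, 42.3% lower, and the 4 higher members together at 412 and 497 FPKM.

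Slc2a1 (ENSMUSG00000028645) encodes GLUT1, the glucose transporter of the plasma membrane in most cells. It was at 15.4 FPKM in WT ATM and 42.0 in KO ATM, from about 295 and 1021 fragments. The difference was 1.39, a ratio of 2.72 (2.39 to 3.11), and Slc2a1 went from rank 3773 to rank 1679 among genes by level. Slc2a1 was thus higher in KO, on the side opposite to most members. It was nearly the whole of the measured transporter level in KO: of the summed FPKM of Slc2a1, Slc2a3, Slc2a4, Slc2a6 and Slc2a8 it took 62.8% in WT and 97.9% in KO. Slc2a8, an intracellular transporter, was at 7.64 FPKM in WT ATM and 0.332 in KO ATM. Slc2a3, which encodes the high-affinity transporter GLUT3, was listed at 0 in the WT library and stood at 0.565 FPKM in KO ATM, and Slc2a4, the insulin-responsive GLUT4, was listed at 0 in both.

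Hk2 (ENSMUSG00000000628) encodes hexokinase 2, which phosphorylates glucose and so traps it in the cell. Its level was 15.5 FPKM in WT ATM and 5.41 in KO ATM, or 65.0% lower, from about 501 and 223 fragments. With a difference of -1.36 and a ratio of 0.350 (0.298 to 0.411), it had the most negative value of the members. The other hexokinases detected went the other way. Hk1 was at 14.6 FPKM in WT ATM and 30.1 in KO ATM, and Hk3, a hexokinase of myeloid cells, at 22.9 and 32.6 FPKM. The hexokinase level summed over these genes was therefore not lower, at 53.0 FPKM in WT ATM and 68.1 in KO ATM, and the share of Hk2 in it was 29.2% in WT and 7.95% in KO.

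Gpi1 (ENSMUSG00000036427) encodes glucose-6-phosphate isomerase, which turns glucose 6-phosphate into fructose 6-phosphate. It was at 171 FPKM in WT ATM and 128 in KO ATM, a difference of -0.42 and a ratio of 0.746 (0.708 to 0.786). Gpi1 held the third place among the members in both libraries. Pfkl (ENSMUSG00000020277) encodes the liver-type subunit of phosphofructokinase, the enzyme of the committed step. It was at 3.55 FPKM in WT ATM and 14.8 in KO ATM, from about 78 and 411 fragments, a difference of 1.79 and a ratio of 4.15 (3.24 to 5.35). Pfkl had the fewest fragments of the members in WT (in KO, Hk2 had) and the widest interval relative to its ratio. The platelet-type gene Pfkp was at 28.0 FPKM in WT ATM and 13.8 in KO ATM, and the muscle-type gene Pfkm at 0.478 and 3.20 FPKM. The 3 subunit genes summed to 32.1 FPKM in WT ATM and 31.8 in KO ATM, so that the summed level was nearly equal while the share of Pfkl in it was 11.1% in WT and 46.4% in KO and that of Pfkp 87.4% and 43.5%.

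Aldoa (ENSMUSG00000030695) encodes aldolase A, which cleaves fructose 1,6-bisphosphate into the triose phosphates. Its level was 196 FPKM in WT ATM and 236 in KO ATM, a difference of 0.27 and a ratio of 1.20 (1.13 to 1.28). Aldoa carried 97.0% of the aldolase level in WT and was the 1 aldolase gene listed above 0 in KO, where Aldoc, at 6.14 FPKM in WT, was listed at 0. A listed 0 is not evidence that a gene is off, because genes used in nearly every cell were also listed at 0 in 1 library, such as Anapc15 in WT and Aimp2 in KO, which were picked after their values were seen. Tpi1 (ENSMUSG00000023456) encodes triosephosphate isomerase, which brings the second triose into the lower pathway. It was at 146 FPKM in WT ATM and 56.5 in KO ATM, from about 1372 and 678 fragments, or 61.1% lower. The difference was -1.35 and the ratio 0.389 (0.354 to 0.426). Aldoa and Tpi1, neighbours in the pathway with near levels in WT, parted in KO: Tpi1 stood at 74.2% of Aldoa in WT and at 23.9% in KO.

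Pgk1 (ENSMUSG00000062070) encodes phosphoglycerate kinase, the first ATP-forming enzyme of the pathway. It was at 84.9 FPKM in WT ATM and 51.0 in KO ATM, a difference of -0.73 and a ratio of 0.600 (0.543 to 0.663). Eno1 (ENSMUSG00000063524) encodes enolase 1, which forms phosphoenolpyruvate, and was at 65.8 FPKM in WT ATM and 42.0 in KO ATM, a difference of -0.64 and a ratio of 0.638 (0.574 to 0.710). Both lay below WT by similar amounts, and both have near-identical copies in the genome. Of the 50-base words in Pgk1 transcripts, 67.9% also occurred in Pgk1-rs7, and of those of Eno1 48.4% occurred in Eno1b, by the GENCODE M21 transcripts, so the split of fragments between copies is uncertain. Eno1b was at 11.4 FPKM in WT ATM and 2.003 in KO ATM, on the same side as Eno1. Eno2, known as the neuronal enolase, was listed at 0 in the WT library and stood at 10.2 FPKM in KO ATM, and the enolase genes summed to 77.2 FPKM in WT ATM and 54.5 in KO ATM. For the other members, the copy that shared most took 18.0% (Gpi1), 15.6% (Pkm) and 4.84% (Tpi1) of the words, and less in the rest, with no shared word for Slc2a1 and Hk2.

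Pkm (ENSMUSG00000032294) encodes pyruvate kinase M, the second ATP-forming enzyme. It was at 197 FPKM in WT ATM and 204 in KO ATM, a difference of 0.05 and a ratio of 1.04 (0.988 to 1.09), the 1 member whose counting interval held a ratio of 1 on the deposited scale (1.02 to 1.12 with both libraries at the same summed FPKM and 1.03 to 1.14 at the same upper quartile), and its rank was 400 in WT and 397 in KO. The gene-level value does not separate the PKM1 and PKM2 splice forms. Ldha (ENSMUSG00000063229) encodes the lactate dehydrogenase A subunit, which favours the reduction of pyruvate to lactate. It was at 106 FPKM in WT ATM and 57.1 in KO ATM, from about 1128 and 773 fragments, a difference of -0.88 and a ratio of 0.539 (0.491 to 0.591). Its level was thus 46.1% lower in KO while that of Pkm, the step before it, was nearly equal, and Ldha stood at 53.9% of Pkm in WT and at 28.0% in KO. Ldhb, which encodes the subunit that favours the reverse reaction, was listed at 0 in both libraries. Ldhc was at 0.423 FPKM in WT and listed at 0 in KO, and Ldhal6b was listed at 0 in WT with 6.13 FPKM in KO. Ldha thus carried 99.6% of the lactate dehydrogenase level in WT and 90.3% in KO.

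**Figure D3:**
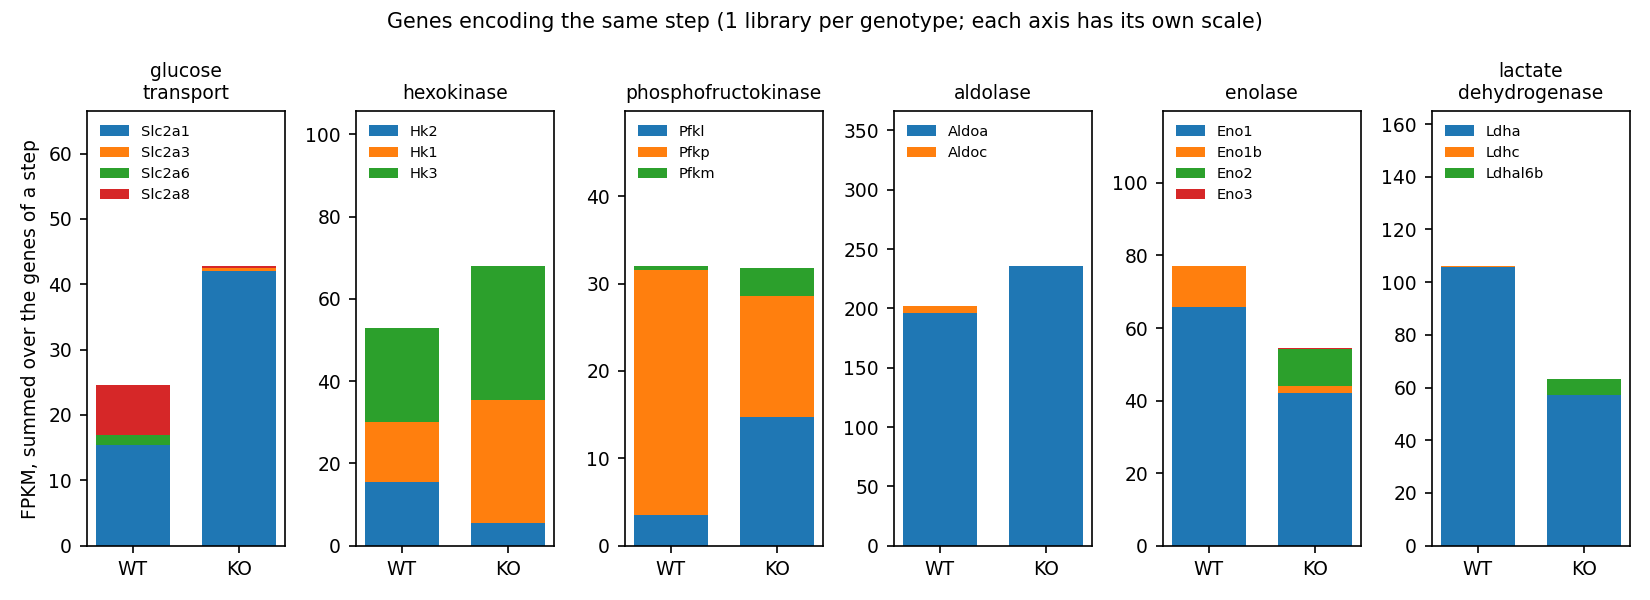
FPKM summed over the genes that encode the same step, as stacked bars that start at 0, 1 bar per library and 1 panel per step, each with its own scale. The phosphofructokinase bars are nearly equal (32.1 and 31.8 FPKM) with a different make-up, Hk2 shrinks within a taller hexokinase bar, and the enolase and lactate dehydrogenase bars are shorter in KO.

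Of all genes compared, 51.3% were higher and 48.7% lower in KO, and the members were set beside this by their place in the pathway. From uptake to aldolase 3 of 5 members were higher in KO, with a median difference of 0.27, and the sum was 402 FPKM in WT ATM and 426 in KO ATM. From triosephosphate isomerase to lactate dehydrogenase 4 of 5 members were lower, with a median difference of -0.73, and the sum was 599 FPKM in WT ATM and 411 in KO ATM. Gapdh and Pgam1, the steps of this lower part outside the 10 members, were also lower: Gapdh, the glyceraldehyde-phosphate dehydrogenase, was at 698 FPKM in WT ATM and 636 in KO ATM (-0.13), and Pgam1, the phosphoglycerate mutase, at 134 and 115 FPKM (-0.21). With them, 6 of 7 genes of the lower part were lower and their sum was 1430 FPKM in WT ATM and 1162 in KO ATM, a ratio of 0.813. Whether the parts differ from each other beyond the variation between samples was not tested, as each genotype had 1 library.

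Read against the whole table, few members stood out. Past 3-fold, the fold the study used for its lists, 1 member was higher (Pfkl) and 0 were lower, while of the 10297 genes compared 13.6% were past 3-fold higher and 13.7% past 3-fold lower. Past 2-fold, 2 members were higher (Slc2a1 and Pfkl) and 2 were lower (Hk2 and Tpi1), against 23.1% of all genes higher and 22.5% lower. Such differences were more frequent among low genes. Within the members' own range of mean level, 9.15 to 216 FPKM with 4882 genes, 6.80% were past 3-fold higher and 7.70% past 3-fold lower, and 14.7% past 2-fold higher and 15.0% past 2-fold lower. The members' shares, 1 and 0 of 10 at 3-fold and 2 and 2 of 10 at 2-fold, are near these backgrounds.

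The size that a difference reached between these libraries depended on level, and each member was therefore set beside genes of similar mean FPKM. The 10th to 90th percentile of the difference ran from -2.05 to 1.95 over the 3746 genes at 5 to 20 FPKM, where Hk2 and Pfkl lie, and both were inside it. At 20 to 50 FPKM it ran from -1.19 to 1.21 over 1711 genes, and Slc2a1 at 1.39 lay above it. At 50 to 100 FPKM it ran from -0.94 to 0.78 over 667 genes, with Pgk1, Eno1 and Ldha inside it. At 100 to 250 FPKM it ran from -0.66 to 0.63 over 414 genes, where Tpi1 at -1.35 lay below it and Gpi1, Aldoa and Pkm lay inside. In all, 8 of 10 members were within the 10th to 90th percentile of their level, which is the share that such a band holds by definition. By quartiles of the same bands, 6 members lay below the lower quartile (Hk2, Gpi1, Tpi1, Pgk1, Eno1 and Ldha), 2 above the upper (Slc2a1 and Pfkl) and 2 between (Aldoa and Pkm). The 6 members that were lower were thus each below the lower quartile of genes of their level, with Tpi1 alone of them outside the wider band. These 6 of 10 are a larger share than a quartile cuts off by definition, and this was not tested.

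**Figure D4:**
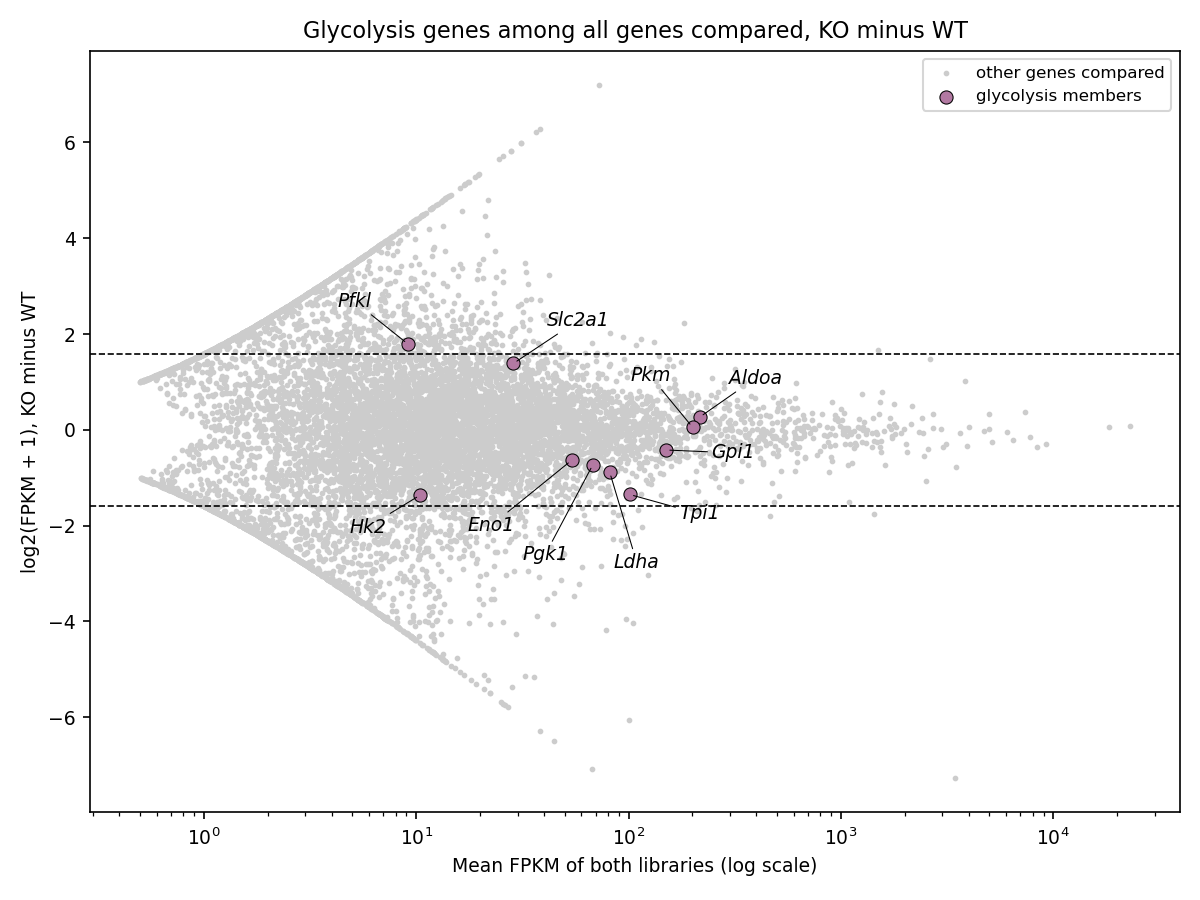
Difference between the libraries, log2(FPKM + 1) KO minus WT, against the mean FPKM of both on a log axis, for the 10297 genes compared (grey) and the 10 members (purple, named), with dashed lines at 3-fold. Pfkl lies above the upper line, no member lies below the lower one, and the grey cloud widens toward low levels, with its straight edges formed by genes listed at 0 in 1 library.

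The other genes of glucose and lactate metabolism gave a mixed picture. Of a list of 35 (other transporters and isoenzymes, the remaining steps, lactate and pyruvate carriers and gluconeogenic enzymes), 22 passed the filter of 1 FPKM in at least 1 library, 10 were listed at 0 in both and 3 lay under the filter. Of the 22, 8 were higher and 14 lower in KO, with a median difference of -0.29 (0.00 over all 35 with no filter, since many are at 0 in both); 2 were past 3-fold higher (Eno2 and Ldhal6b) and 4 past 3-fold lower (Slc2a8, Aldoc, Bpgm and Eno1b), against the 13.6% and 13.7% of all genes compared, which these counts lie near. These calls are on the log2(FPKM + 1) scale; Pfkm, not among them at 1.51, had an FPKM ratio of 6.70 (3.26 to 16.3) from about 8 and 69 fragments. Bpgm, which makes 2,3-bisphosphoglycerate, was at 8.20 FPKM in WT and was listed at 0 in KO. Of the 22, 15 were above 0 in both libraries, and for a gene listed at 0 in 1 library the FPKM values are given with no ratio.

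Lactate made by LDHA leaves the cell through monocarboxylate carriers, and pyruvate that is not reduced can enter mitochondria instead. Slc16a3, which encodes MCT4, the lactate exporter of glycolytic cells, was at 23.5 FPKM in WT ATM and 15.9 in KO ATM (-0.54), and Bsg, the chaperone that brings it to the membrane, at 119 and 86.9 FPKM (-0.45). Slc16a1, which encodes MCT1, was on the other side, at 5.62 and 8.46 FPKM (0.51), and Slc16a7 was at 5.71 and 4.68 FPKM. The mitochondrial pyruvate carrier needs both of its subunits. Mpc1 was at 19.3 FPKM in WT ATM and 15.1 in KO ATM, with a counting interval of the ratio, 0.591 to 1.03, that held 1, and Mpc2 was at 40.03 and 19.9 FPKM (-0.97), a ratio of 0.498 (0.405 to 0.614). The gluconeogenic genes were low, with Fbp1 at 1.40 FPKM in WT and listed at 0 in KO, Pck2 at 1.56 and 2.46 FPKM, and Pcx listed at 0 in the WT library and stood at 1.94 FPKM in KO ATM.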

How the data were processed

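Poly(A) RNA of FACS-sorted ATM was sequenced, with 1 library for WT and 1 for KO. The authors deposited gene-level FPKM for both in 1 table. The submitters' processing notes name CASAVA 1.8.2, TopHat2 2.0.9, Cufflinks 2.2.1 and the genome build mm9; settings, strand and the treatment of reads that match several places are not given in the sources used here. The column named for the mutant was read as KO. No counts were used here.

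Of 20749 rows, 401 full repeats were dropped and 18 further rows of the same gene were summed (none was a member), which left 20330 genes. Symbols were matched for 98.5% of the Ensembl IDs. Genes at 1 FPKM or more in at least 1 library were compared (10297) as log2(FPKM + 1), KO minus WT, with a threshold of 3-fold. No test was run, because there were no replicates. Fragment numbers were estimated by dividing FPKM times the longest coding transcript length (GENCODE M21, GRCm38) by the smallest recurring step of each library. Ratio intervals are exact (Clopper-Pearson, 95%) and cover counting error only. The fold threshold and the search for the step were tested on simulated fragments. The ratio intervals and the fragment numbers of the real libraries were not tested.

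Promoter windows came from RefSeq (GRCm38.p6), with their own coordinates; no coordinates are given for the genes in the build of the files, and protein sequences were not used here. Named genes were the members, Hif1a, the passing genes of the list of other glycolysis genes and cell type markers. The NADH shuttle and glycogen genes (Gys2 and Gbe1 did not pass), Apoe, Anapc15 and Aimp2 were added after the values were seen. Slc2a3, Slc2a4, Ldhb, Ldhc, Camp, Ltf, Mmp8, Adipoq and Plin1, which did not pass, are named as listed. The members and lists were chosen with earlier results of these data known. Python 3.11.15, pandas 2.3.3, numpy 2.4.6, scipy 1.17.1 and matplotlib 3.10.9 were used.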

Additional observations from a re-analysis of the deposited data

How the results depend on the processing

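No paired analysis was possible because WT and KO had 1 library apiece, and no replicate could be left out. Over the 9 alternatives (pseudocounts of 0.1 and 0.01, other filters, KO scaled by 1.03 or 1.05 to the same summed FPKM or upper quartile, the 2-fold threshold, and Eno1b added to Eno1), differences were 1.79 to 2.05 for Pfkl, 1.39 to 1.45 for Slc2a1, -1.51 to -1.30 for Hk2, -1.36 to -1.28 for Tpi1, -0.89 to -0.81 for Ldha, -0.80 to -0.57 for Eno1, -0.42 to -0.35 for Gpi1, -0.74 to -0.66 for Pgk1, 0.27 to 0.33 for Aldoa and 0.05 to 0.12 for Pkm, whose counting interval held a ratio of 1 only without rescaling. Most of these alternatives could not turn a member's direction, and 49 of 90 recomputed values were identical, so an equal direction says nothing about stability. The median of the other glycolysis genes was 0.00 with no filter, against -0.29. Counts over all genes moved: 429 higher and 447 lower past 3-fold with 1 FPKM in both libraries, 598 and 646 with a mean of at least 5 FPKM, and 2380 and 2314 past 2-fold, against 1402 and 1413. The shares of genes past 3-fold moved too, from 13.6% higher and 13.7% lower to 5.66% and 5.89% with the first of these filters and to 8.70% and 9.40% with the second, and to 6.90% and 6.95% with no filter, which adds genes at or near 0 in both libraries. At 2-fold, 2 members were higher and 2 lower, against 1 and 0 at 3-fold. Nothing here bounds the variation between animals, and at this depth genes under about 0.256 FPKM in WT rest on 3 fragments or fewer for a transcript of 2 kb.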

Other observations

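Cytosolic NADH from glycolysis is reoxidised either by lactate dehydrogenase or by the shuttles that carry its electrons into mitochondria, and the shuttle genes were listed after the values of the glycolysis members had been seen. All 10 passed the filter, and 6 were lower and 4 higher in KO, with a median difference of -0.79 and a sum of 363 FPKM in WT ATM and 282 in KO ATM. Past 3-fold, 3 were lower and 1 higher, against 13.7% and 13.6% of all genes compared. Of the lower ones, Gpd2, the mitochondrial glycerol-phosphate dehydrogenase, was at 8.59 FPKM in WT ATM and 1.06 in KO ATM, Gpd1l at 6.48 and 0.924 FPKM, and the aspartate-glutamate carrier gene Slc25a13 at 8.67 and 1.24 FPKM. Gpd1, the higher one, was listed at 0 in the WT library and stood at 3.82 FPKM in KO ATM. Among the genes of higher level, the malate dehydrogenases Mdh1 (52.4 and 19.9 FPKM) and Mdh2 (123 and 85.1 FPKM) and the carrier gene Slc25a11 (50.4 and 23.9 FPKM) were lower in KO, whereas the aspartate aminotransferases Got1 (77.0 and 101 FPKM) and Got2 (26.0 and 32.0 FPKM) and the carrier gene Slc25a12 (10.2 and 12.9 FPKM) were higher.

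Glycogen genes were also listed afterwards. Of 11 genes 9 passed, 5 higher and 4 lower in KO with a median difference of 0.21, and 0 were past 3-fold on the log2(FPKM + 1) scale, where 13.6% of all genes compared were higher and 13.7% lower. Of the phosphorylase genes, the muscle and brain types were higher in KO, Pygm at 23.0 FPKM in WT ATM and 29.7 in KO ATM and Pygb at 5.50 and 10.4 FPKM, while the liver type Pygl was at 1.25 and 0.763 FPKM, and the synthase gene Gys1 was at 0.269 and 2.23 FPKM, from about 6 and 61 fragments, an FPKM ratio of 8.27 (3.47 to 22.6) that the added 1 reduces to a difference of 1.35. Gys2 and Gbe1 were listed at 0 in both libraries.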
